A study of Rattus norvegicus with 12 samples.

Results

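Interferon response genes were examined in rat liver epithelial cells cultured with and without arginine. The 9 listed members were Ifi27l2b, Stat2, Irf1, Irf7, Mx1, Mx2, Isg15, Ifit2 and Oas1a. A probe set was taken as a member when the array annotation gave it exactly 1 gene symbol and that symbol was on the list. This found 9 probe sets for 7 of the 9 genes, among 10411 genes with a single-symbol probe set and 15923 probe sets in all on the Affymetrix RAE230A array. No probe set carried Isg15 or Ifit2 as its only symbol, so these genes have no value here. Of the 9 probe sets, 5 from 5 genes passed the filter on low signals, among 9745 that passed in all, and were tested. The other 4 are given as signals only.

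The 4 groups compared had 3 independent cultures each, with 1 array per culture, 12 arrays in all. Arginine-deficient tumor cells and arginine-sufficient tumor cells were of the line GP7TB, a clonal tumorigenic derivative of WB-F344 obtained by repeated exposure to the carcinogen MNNG. Arginine-deficient normal cells and arginine-sufficient normal cells were of the line WB-F344, a diploid epithelial line established from adult male Fischer-344 rat liver. All cultures were kept for 18 hours in a custom medium with 5% fetal bovine serum, without added arginine or with arginine at 0.168 g/l. The serum was not dialyzed, so arginine was low and not absent in the deficient cultures, and each cell type is 1 line.

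Interferons are secreted proteins that cells release on sensing viral nucleic acid. Type I interferons bind the receptor chains Ifnar1 and Ifnar2 and act through the kinases Jak1 and Tyk2 on Stat2, which joins Irf9 in a complex that binds the interferon-stimulated response element, ISRE. Interferon gamma binds Ifngr1 and Ifngr2 and acts on the gamma-activated site, GAS. The genes switched on in this way include antiviral effectors such as the Mx GTPases and the 2′-5′ oligoadenylate synthetases, and small mitochondrial or membrane proteins of the Ifi27 family.

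Promoters of the members are shown where they hold one of these elements, to give the sequence context of genes whose signals are described next. The RefSeq promoter table of the build GRCr8 held 5 of the 9 members (Stat2, Irf1, Irf7, Mx1 and Oas1a) and also Ifi27, which lies next to Ifi27l2b on chromosome 6 in that annotation. The 250 bases before the annotated start were searched for an ISRE core, spelled GAAA, any 2 bases and GAAA on either strand, and for a GAS core, spelled TTCNNNGAA, which reads the same on both strands. An ISRE core was present in 3.41% and a GAS core in 7.67% of all 33469 promoters. Each stretch is printed 5′ to 3′ on the strand of the gene, with the matches in capitals. The match in Irf1 is a GAS core and those in Irf7, Oas1a and Ifi27 are ISRE cores.
Irf1 (chr10:38417773-38417821, + strand): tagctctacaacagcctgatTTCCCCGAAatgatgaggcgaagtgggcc
Irf7 (chr1:205800063-205800112, - strand): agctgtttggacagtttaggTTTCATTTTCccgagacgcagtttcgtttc
Oas1a (chr12:41330405-41330460, + strand): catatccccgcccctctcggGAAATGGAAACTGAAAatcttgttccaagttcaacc
Ifi27 (chr6:128355123-128355257, + strand): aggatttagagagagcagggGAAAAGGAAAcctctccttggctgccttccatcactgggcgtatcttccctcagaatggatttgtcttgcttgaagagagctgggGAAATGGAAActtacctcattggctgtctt

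The first bases of the matches lie 142 bases before the start of Irf1, 69 before that of Irf7, 41 and 35 before that of Oas1a, and 169 and 84 before that of Ifi27. The cores of Oas1a overlap each other, and it also had 1 GAS core outside the printed stretch. Stat2 and Mx1 had neither core in this window. A match describes the letters only, and no binding was measured here.

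Signals are Microarray Suite 5.0 values on a linear scale, scaled by the authors to a trimmed mean of 500.1 to 500.2 on every array. The expressed level of an array was set at its 46th percentile, which fell between signals of 146 and 191 and is called the threshold here. A probe set was tested when it was expressed in at least 3 of the 12 arrays. Ifi27l2b, Irf1, Irf7 and 1 probe set of Stat2 were expressed on all 12 arrays, and Oas1a on 5. Differences are log2 changes from limma, each given ± its SE for 3 arrays in a group. This SE rests on a spread that limma estimates over all 12 arrays, so it is not the spread of the compared groups alone. The p-values were adjusted by Benjamini-Hochberg over all 9745 tested probe sets. A gene was called when its adjusted p was under 0.05. Arrays of tumor cells were scanned on 1 day and those of normal cells on 3 other days, with different chip lots, so cell type and scan day or lot cannot be told apart. The run records of 1 array in each tumor group, both of experiment 2, carry a note of no trypsin. Of 6 epithelial marker probe sets, 2 passed the filter. Krt8 and Krt7 were expressed on all 12 arrays, whereas Krt18, Krt19, Cdh1 and Epcam were expressed on 0 arrays. Krt7 read 176 to 382 in the 6 tumor arrays and 3199 to 6321 in the 6 normal arrays. Of the other marker probe sets, 1 of 10 for hepatocytes, 1 of 10 for leukocytes (Cd14) and 0 of 3 for endothelium passed the filter, and the leukocyte antigen gene Ptprc was not expressed on any array. The summed leukocyte marker signal was 1183 to 2275 in arginine-deficient tumor cells, 1334 to 1708 in arginine-sufficient tumor cells, 1182 to 1301 in arginine-deficient normal cells and 1185 to 1448 in arginine-sufficient normal cells.

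Ifi27l2b, a member of the Ifi27 family of small interferon-inducible proteins, was the only tested member with a called change on arginine withdrawal. Its signal was 3609, 3191 and 2484 in arginine-deficient tumor cells, against 413.5, 263.0 and 337.1 in arginine-sufficient tumor cells (experiments 1, 2 and 3 in each case, which for tumor cells follow the order of the sample numbers and may not be true pairs). In normal cells it was 9126, 2536 and 6089 without arginine, against 1421, 1618 and 1201 with arginine. In both cell types every arginine-deficient array lay above every arginine-sufficient array. The arginine-deficient array of experiment 2 stood lowest of its group in normal cells.

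In tumor cells Ifi27l2b rose 9.21-fold without arginine, a log2 change of 3.20 ± 0.36 (limma, adjusted p = 0.000833). The log2 ratios of arrays matched by this order were 3.13, 3.60 and 2.88. Without both arrays noted as no trypsin the change was 3.0 ± 0.46 (adjusted p = 0.0481). It was the 1 call among the 5 tested members, where 1.91% of all tested probe sets were called in this comparison and 0.965% were called higher. Arginine-deficient arrays wholly above the sufficient ones were seen for 9.69% of all tested probe sets in tumor cells, 6.18% in normal cells and 1.94% in both. In a bulk culture, more cells with the transcript and more transcript per cell cannot be told apart.

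In normal cells the log2 change of Ifi27l2b was 1.89 ± 0.36, and it did not pass the test (limma, adjusted p = 0.0618). Here limma called 0 of 5 members, while 0.164% of all tested probe sets were called. A plain linear model also called 0, as it did over all 9745 tested probe sets, so its count says nothing particular to the members. An unadjusted p under 0.05 was seen for 2 of the 5 (Ifi27l2b and Irf7) and for 9.44% of all tested probe sets. The log2 ratios of the experiments were 2.68, 0.65 and 2.34. The paired arrays of experiment 2 differed in scan day and chip lot, while those of experiments 1 and 3 shared both. The ratio of 0.65 therefore cannot be told apart from scan day and lot. When blocked on experiment, the change passed (adjusted p = 0.00936), as it did without the arginine-deficient array of experiment 2 (2.41, adjusted p = 0.00126). Blocking called 2.41% of all tested probe sets in normal cells, 1.39% higher and 1.03% lower. The pairing by experiment, from the study's first table, was borne out in normal cells, where the deviations of paired arrays from their group means correlated at 0.38 to 0.43 across probe sets.

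Between the cell types, the response of Ifi27l2b differed by 1.31 ± 0.50 on the log2 scale, larger in tumor cells. This difference did not pass the test (limma, adjusted p = 0.824, unadjusted p = 0.0211). Of the 5 members, limma called 0, as did the plain linear model, which called 0 of all 9745 tested probe sets. Over all tested probe sets 0.00% were called and 5.64% had an unadjusted p under 0.05, as did 1 of the 5 members. Counted over all 9 ratios of an arginine-deficient to an arginine-sufficient array, Ifi27l2b was at least 2-fold higher in 9 of 9 in tumor cells and 7 of 9 in normal cells. An increase in at least 6 of the 9 ratios was met by 1.08% of all tested probe sets in tumor cells and by 0.770% in normal cells, and a decrease by 1.40% and 0.359%. None of the other 8 member probe sets met this rule in either direction, the 4 below the filter included.

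By group mean, the order of Ifi27l2b was arginine-deficient normal cells (5917 ± 3298), arginine-deficient tumor cells (3094 ± 569), arginine-sufficient normal cells (1413 ± 208) and arginine-sufficient tumor cells (338 ± 75.3; SD, n = 3 each). The first and second in this order overlapped, and the others did not overlap with their neighbours. Without arginine, tumor minus normal cells was -0.77 ± 0.36 on the log2 scale and did not pass the test (limma, adjusted p = 0.102). Without the arginine-deficient normal array of experiment 2 it was -1.29 (adjusted p = 0.00169). With arginine, Ifi27l2b was 4.22-fold lower in tumor cells, a log2 difference of -2.08 ± 0.36 (adjusted p = 0.000574).

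Within batches, Ifi27l2b was higher without arginine wherever a batch held both conditions. Arrays are counted here as deficient against sufficient. Within the chip lots of tumor cells its log2 change was 2.91 (2 against 2 arrays) and 3.78 (1 against 1). In normal cells it was 2.34 (1 against 1) and 1.76 (2 against 1) within scan days, and 1.99 (3 against 2) within a lot. The Gapdh signal ratio of 3′ over 5′ probe sets, which tracks RNA integrity, exceeded its arginine-sufficient partner in 6 of 6 pairs as numbered. The Actb ratio did in 2 of 6 and was lower in the others. It was 1.63 against 1.01 in tumor experiment 3 and 1.41 against 1.10 in normal experiment 1, deficient against sufficient. The Gapdh ratio was 1.13 to 1.23 in arginine-deficient tumor cells and 1.09 to 1.14 in arginine-sufficient tumor cells. In normal cells it was 1.01 to 1.38 without arginine and 0.998 to 1.25 with arginine. The part of either ratio in the change of Ifi27l2b was not tested.

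Ifi27, the neighbour and family member of Ifi27l2b, is the gene whose promoter holds the pair of ISRE cores shown above. Its signal was 2190, 1939 and 2060 in arginine-deficient tumor cells, against 1520, 1492 and 1499 in arginine-sufficient tumor cells. In normal cells it was 4735, 4329 and 4636 without arginine, against 4281, 3639 and 5145 with arginine. The groups did not overlap in tumor cells and overlapped in normal cells. The log2 change was 0.46 ± 0.15 in tumor cells, which did not pass the test (limma, adjusted p = 0.149), and 0.08 ± 0.15 in normal cells (adjusted p = 0.913). Ifi27 was 2.21-fold lower in tumor than in normal cells without arginine (log2 -1.15 ± 0.15, adjusted p = 5.88e-05) and 2.87-fold lower with arginine (-1.52 ± 0.15, adjusted p = 5.62e-06). Probe sequences were not used here, so cross-hybridization between these related genes was not tested.

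**Figure D1:**
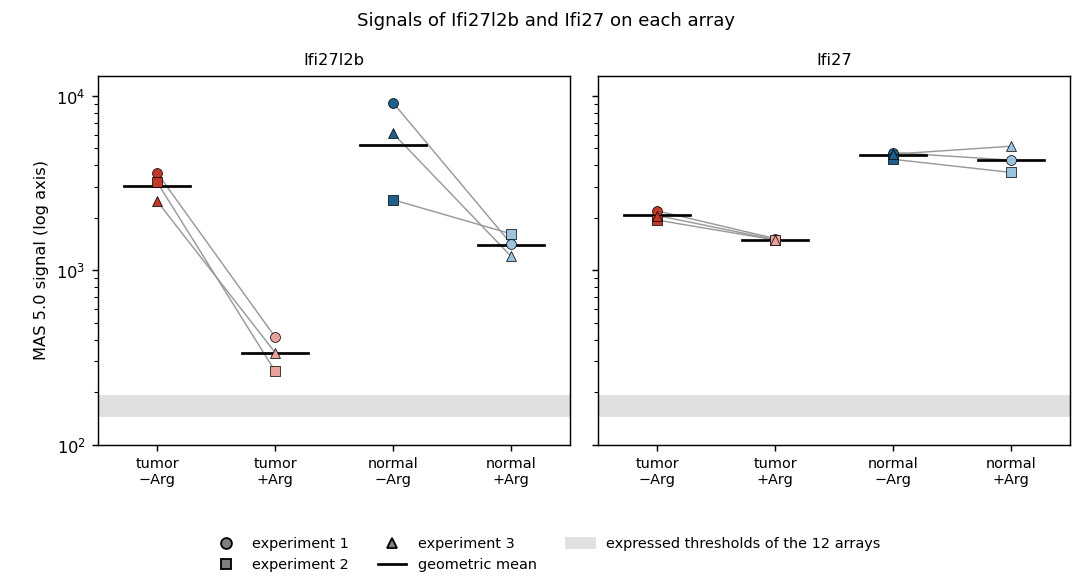
Signals of Ifi27l2b (left) and Ifi27 (right) on a log axis for the 12 arrays, by group, with lines joining arrays of the same experiment, bars at geometric means and a grey band for the range of expressed thresholds. Arginine-deficient tumor arrays of Ifi27l2b sit between 2484 and 3609 and arginine-sufficient ones between 263.0 and 413.5, while those of Ifi27 sit between 1939 and 2190 and between 1492 and 1520.

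Of the signalling members, Stat2, the transcription factor of the type I interferon complex, has 2 probe sets that differ in level. The brighter had a signal of 345.8, 427.0 and 358.8 in arginine-deficient tumor cells, against 424.6, 387.4 and 436.3 in arginine-sufficient tumor cells. In normal cells it was 515.0, 270.7 and 438.2 without arginine, against 616.4, 389.9 and 627.7 with arginine. The groups overlapped in both cell types, although the arginine-deficient array was the lower of its pair in all 3 experiments of normal cells. Its log2 change was -0.15 ± 0.25 in tumor cells (limma, adjusted p = 0.846) and -0.44 ± 0.25 in normal cells (adjusted p = 0.627), and neither difference between the cell types passed the test.

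The dimmer Stat2 probe set was not expressed on any array. It read 13.3, 13.9 and 14.5 in arginine-deficient tumor cells, against 133.7, 73.7 and 148.8 in arginine-deficient normal cells. With arginine it read 11.2, 19.0 and 74.7 in tumor cells and 112.6, 21.7 and 45.2 in normal cells. The cell types did not overlap without arginine and overlapped with it, a pattern that the brighter probe set did not show. Signals this far below the threshold are not read as levels.

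Irf1, a transcription factor that interferon gamma induces, did not differ with arginine beyond the spread between arrays. Its signal was 336.7, 281.7 and 237.2 in arginine-deficient tumor cells, 354.8, 250.2 and 230.4 in arginine-sufficient tumor cells, 516.9, 375.4 and 496.7 in arginine-deficient normal cells and 426.2, 433.2 and 478.0 in arginine-sufficient normal cells. Every tumor array was below every normal array, in the deficient and the sufficient cultures alike. The log2 change with arginine withdrawal was 0.05 ± 0.22 in tumor cells (limma, adjusted p = 0.956) and 0.04 ± 0.22 in normal cells (adjusted p = 0.974).

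Between the cell types, Irf1 was 1.62-fold lower in tumor cells without arginine (log2 -0.70 ± 0.22, limma, adjusted p = 0.0189) and 1.63-fold lower with arginine (-0.70 ± 0.22, adjusted p = 0.0216). It was the 1 call among 5 tested members without arginine, where 40.7% of all tested probe sets were called (19.5% higher and 21.2% lower), and with Ifi27l2b 1 of 2 with arginine, where 34.6% were called (16.4% higher and 18.1% lower). A tumor group wholly below its normal group was seen for 24.1% of all tested probe sets without arginine and 24.7% with arginine. Irf1 did not pass when single arrays were left out, with an adjusted p of up to 0.0815 without arginine (arginine-deficient normal experiments 1 and 3, and tumor experiments 2 and 3). With arginine it reached 0.0918 (arginine-sufficient normal experiment 3, and tumor experiments 2 and 3). Without both arrays noted as no trypsin it was 0.0684 without arginine and 0.102 with arginine.

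Irf7, the factor that amplifies type I interferon transcription, read lower without arginine in both cell types but did not pass the test in either. Its signal was 214.1, 245.4 and 295.5 in arginine-deficient tumor cells, against 352.7, 302.6 and 378.7 in arginine-sufficient tumor cells. In normal cells it was 240.3, 243.1 and 185.1 without arginine, against 322.6, 307.8 and 582.1 with arginine. Neither pair of groups overlapped, and the highest value was the arginine-sufficient normal array of experiment 3.

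The log2 change of Irf7 was -0.46 ± 0.25 in tumor cells (limma, adjusted p = 0.417) and -0.81 ± 0.25 in normal cells (adjusted p = 0.324, or 0.105 when blocked). Among all tested probe sets, 13.6% had arginine-deficient arrays wholly below the sufficient ones in tumor cells, 7.76% in normal cells and 2.13% in both. Within chip lots the change was -0.44 (2 deficient against 2 sufficient arrays) and -0.50 (1 against 1) in tumor cells. In normal cells it was -0.97 (3 against 2) within a lot, and -1.65 (1 against 1) and -0.42 (2 against 1) within scan days. Levels of Irf7 were close between the cell types, at a log2 difference of 0.17 ± 0.25 without arginine (adjusted p = 0.613) and -0.17 ± 0.25 with arginine (adjusted p = 0.635), tumor minus normal.

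Of the antiviral effectors, Oas1a, a 2′-5′ oligoadenylate synthetase that activates RNase L, was near the expressed threshold. Its signal was 152.5, 169.2 and 215.5 in arginine-deficient tumor cells, 139.2, 201.5 and 276.8 in arginine-sufficient tumor cells, 141.1, 188.5 and 82.1 in arginine-deficient normal cells and 147.2, 147.8 and 142.7 in arginine-sufficient normal cells. Of the 5 arrays on which it was expressed, 4 were of tumor cells, and the groups overlapped in each comparison. The log2 change with arginine withdrawal was -0.16 ± 0.33 in tumor cells and -0.17 ± 0.33 in normal cells, and tumor minus normal was 0.45 ± 0.33 without arginine and 0.44 ± 0.33 with it, none past the test (limma, adjusted p of 0.301 to 0.922).

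Mx1 and Mx2, dynamin-like GTPases that block virus replication, were below the threshold on all 12 arrays. Mx1 read 67.6 to 96.2 in arginine-deficient tumor cells, 67.9 to 108.4 in arginine-sufficient tumor cells, 46.8 to 58.0 in arginine-deficient normal cells and 46.2 to 90.5 in arginine-sufficient normal cells. The pair of Mx2 probe sets read 40.6 to 110.4, 44.9 to 99.7, 23.9 to 83.9 and 32.9 to 88.0 in the same 4 groups. The arginine-deficient and arginine-sufficient ranges overlapped in both cell types for these 3 probe sets, and Mx genes were not detected above the expressed level in either line.

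**Figure D2:**
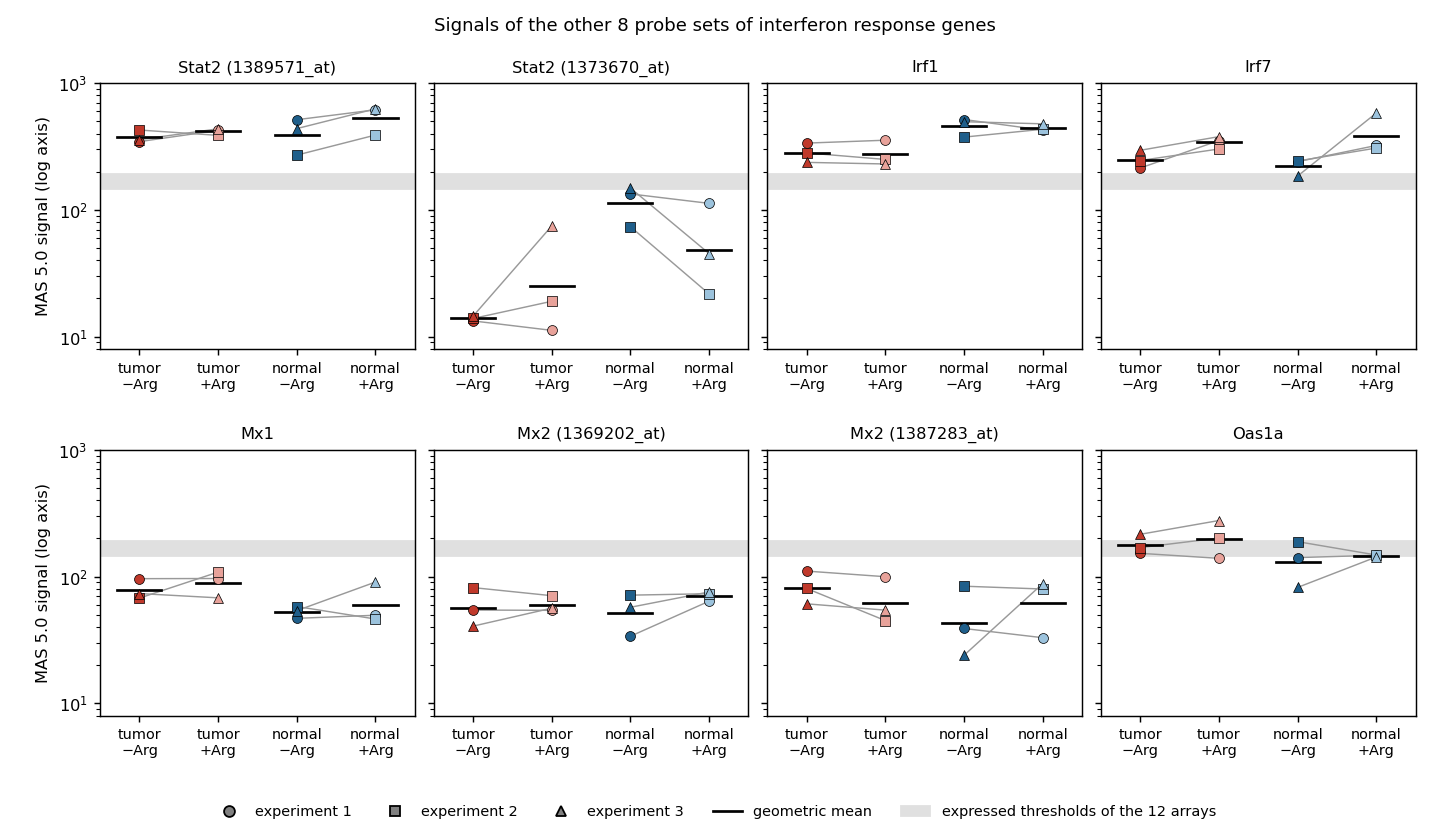
Signals of the other 8 probe sets of the listed genes on a log axis for the 12 arrays, by group, with lines joining arrays of the same experiment, bars at geometric means and a grey band for the range of expressed thresholds. Irf1, Irf7 and the brighter Stat2 probe set lie above or at the band, Oas1a around it and Mx1, Mx2 and the dimmer Stat2 probe set below or at its lower edge.

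The genes whose profile over the 12 arrays was nearest to that of Ifi27l2b were Nupr1, a stress-induced nuclear protein, Borcs8, a subunit of the lysosome-positioning complex BORC, and Cth, the cystathionine gamma-lyase of cysteine synthesis. Likeness was the root mean square difference of log2 signals after each profile was centred on its mean, which was 0.58 for Nupr1, 0.60 for Borcs8 and 0.70 for Cth, against a standard deviation of 1.63 for the profile of Ifi27l2b itself. The log2 change without arginine was 1.83 in tumor and 1.99 in normal cells for Nupr1, 2.66 and 1.16 for Borcs8, and 1.88 and 1.46 for Cth. None of these is on the interferon lists used here. For Irf1 the nearest were Mphosph6 (0.06), Gpbp1 (0.12) and Ythdf3 (0.13), against a standard deviation of 0.42.

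Other genes of interferon signalling were taken from 8 lists of 203 genes besides the members. Of these, 107 were on the array with a single symbol, with 133 probe sets, and 76 probe sets of 70 genes were tested. On arginine withdrawal, 0 of the 76 were called by limma in tumor cells, where 14 had an unadjusted p under 0.05 against 15.3% of all tested probe sets, and 0 in normal cells, where 4 did against 9.44%. A plain linear model also called 0 in each. Over all 9745 tested probe sets it called 21 higher and 8 lower in tumor cells and 0 in normal cells. Its count of 0 in normal cells therefore says nothing particular to these genes. The median log2 change of the 76 was 0.02 in tumor cells and -0.07 in normal cells, against -0.05 and -0.04 over all tested probe sets. When blocked on experiment, the limma fit in normal cells called 2 of them, against 2.41% of all tested probe sets. These were Irf2bp2 higher (log2 0.95, adjusted p = 0.0170) and Ccl2 lower (-1.30, adjusted p = 0.0352). In tumor cells, blocking by sample number, which may not give true pairs, called 5 of the 76 higher and 4 lower. That fit called 11.0% of all tested probe sets, and its calls are named further below.

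The interferon genes themselves were not expressed where measured. Ifnb1 read 10.0 to 24.1 and Ifng 4.4 to 51.9 over the 12 arrays. Among receptors, Ifnar1, Ifnar2, Ifngr1 and Ifngr2 all had a tested probe set. Ifngr2, the signalling chain of the interferon gamma receptor, read 713.4, 748.2 and 535.3 in arginine-deficient tumor cells, against 360.3, 411.4 and 457.2 in arginine-sufficient tumor cells on its brighter probe set, and the groups did not overlap.

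The log2 change of Ifngr2 in tumor cells was 0.69 ± 0.20 on this probe set and 1.25 ± 0.33 on a dimmer one, not past the test (limma, adjusted p = 0.107 and 0.0731). With arginine, Ifngr2 was lower in tumor than in normal cells on both, by log2 differences of -0.86 ± 0.20 (adjusted p = 0.00496) and -1.17 ± 0.33 (adjusted p = 0.0148). The dimmer probe set did not pass after low signals were raised to the threshold (-0.12, adjusted p = 0.436), nor without arginine-sufficient tumor experiment 2 or normal experiment 3. Ifnar1, Ifnar2 and Ifngr1 did not pass in any comparison, with log2 values between -0.54 and 0.22. Jak1 had no probe set with that single symbol, and Jak2 and Tyk2 did not pass in any comparison. Stat3, which carries signals of the interleukin 6 family, was lower in tumor cells without arginine on 1 probe set (-0.76 ± 0.17, adjusted p = 0.00312). Its other tested probe set was not called in that comparison, and neither was called with arginine. Ptpn2, a phosphatase of Jak and Stat proteins, was also lower in tumor cells without arginine (-0.69, adjusted p = 0.0241). The call for Ptpn2 was lost under 4 of 19 alternatives, on leaving out arginine-deficient normal experiment 1 or 3 or tumor experiment 2 or 3.

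Irf9, the DNA-binding partner of Stat2, was lower in tumor than in normal cells with arginine (log2 -1.04 ± 0.36, limma, adjusted p = 0.0406), a call lost under 9 of 18 alternatives, among them low signals raised to the threshold (-0.30, adjusted p = 0.205) and median centring. Usp18, the protease that removes Isg15 from proteins and restrains the type I receptor, read 1207, 1284 and 1742 in arginine-deficient tumor cells, against 150.4, 129.2 and 210.2 in arginine-deficient normal cells. With arginine it read 668.5, 766.0 and 1065 in tumor cells and 158.4, 104.5 and 132.4 in normal cells. All but 1 of the normal arrays were below the threshold. Its log2 difference, tumor minus normal, was 3.12 ± 0.25 without arginine (adjusted p = 6.91e-07) and 2.65 ± 0.25 with it (adjusted p = 3.60e-06), or 2.94 and 2.17 once low signals were raised to the threshold.

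Antiviral effectors other than the members differed between the cell types in both directions. Of 25 tested probe sets, 4 were higher and 8 lower in tumor cells without arginine, with a median log2 difference of -0.34, and 4 higher and 8 lower with arginine, with a median of -0.15, against medians of 0.01 and 0.00 over all tested probe sets. The shares called, 12 of 25 in each, compare with 40.7% and 34.6% of all tested probe sets. After median centring, which moved the median of all tested probe sets to 0.12 in both comparisons, the counts were 4 higher and 6 lower without arginine and 5 higher and 5 lower with arginine. A probe set can pass the filter through 1 cell type alone, so these counts do not stand for genes low in both. The same holds for the counts of the other lists.

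Plscr1, a scramblase with antiviral action, read 727.8, 726.3 and 652.7 in arginine-deficient tumor cells, against 4.0, 9.1 and 31.3 in arginine-deficient normal cells, where it was below the threshold. Its log2 difference was 6.07 ± 0.72 (limma, adjusted p = 2.57e-05), or 2.05 where low signals were raised to the threshold (adjusted p = 9.98e-07). With arginine it was 4.82 ± 0.72 (adjusted p = 0.000193), or 1.30 with low signals raised (adjusted p = 8.00e-05). Bst2, the tetherin that holds budding virus at the cell surface, was 4.51-fold higher in tumor cells without arginine (log2 2.17 ± 0.36, adjusted p = 0.000353) and 3.20-fold higher with it (1.68 ± 0.36, adjusted p = 0.00277).

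Ifitm3, a membrane protein that blocks virus entry, was lower in tumor cells. It read 914.3, 1753 and 2112 in arginine-deficient tumor cells, against 4751, 4998 and 5571 in arginine-deficient normal cells, and 2119, 2668 and 2810 in arginine-sufficient tumor cells, against 5168, 4589 and 5672 in arginine-sufficient normal cells. All tumor arrays lay below all normal arrays, with log2 differences of -1.76 ± 0.25 (limma, adjusted p = 0.000114) and -1.03 ± 0.25 (adjusted p = 0.00623), and Ifitm3 was named with its values known. Dtx3l, a ubiquitin ligase of DNA repair and interferon responses, was below the threshold in all 6 tumor arrays and near it in normal cells, with a log2 difference of -3.68 ± 0.68 without arginine (adjusted p = 0.000795). After low signals were raised it was -0.32 and did not pass (adjusted p = 0.114).

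Genes of antigen presentation include the interferon-inducible proteasome subunit Psmb8. It read 1342, 1287 and 1636 in arginine-deficient tumor cells, against 93.6, 143.2 and 124.1 in arginine-deficient normal cells. With arginine it read 995.1, 837.3 and 978.5 in tumor cells and 162.8, 150.2 and 134.2 in normal cells. All 6 normal arrays were below the threshold. The log2 difference was 3.58 ± 0.20 without arginine (limma, adjusted p = 1.98e-08) and 2.65 ± 0.20 with it (adjusted p = 3.82e-07), or 3.06 and 2.36 once low signals were raised to the threshold.

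Tap2, a chain of the peptide transporter of the endoplasmic reticulum, was higher in tumor cells without arginine (log2 2.37 ± 0.65, limma, adjusted p = 0.0104). Its arginine-deficient normal arrays, at 21.3 to 155.9, were all below the threshold, and the difference was 1.13 once low signals were raised (adjusted p = 0.0109). Psme1, a subunit of the proteasome activator that interferon gamma induces, was lower in tumor cells without arginine (-1.43 ± 0.35, adjusted p = 0.00522) and with it (-1.30 ± 0.35, adjusted p = 0.0105). Of the 19 tested probe sets of antigen presentation, 7 were higher and 3 lower in tumor cells without arginine, and 3 higher and 2 lower with it, which is 52.6% and 26.3% called against 40.7% and 34.6% of all tested probe sets.

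Of the nucleic acid sensors and adaptors, Sting1, the adaptor of cytosolic DNA sensing, was lower in tumor cells, with log2 differences of -1.12 ± 0.37 without arginine (limma, adjusted p = 0.0261) and -1.27 ± 0.37 with it (adjusted p = 0.0162). Of the 8 tested probe sets, 1 was lower without arginine, and with arginine 1 was higher (Tlr4) and 2 lower (Sting1 and Myd88), or 12.5% and 37.5% called against 40.7% and 34.6% of all tested probe sets. Tlr4 was below the threshold in all normal arrays, and its difference of 2.41 (adjusted p = 0.00247) was 0.04 once low signals were raised (adjusted p = 0.857). The call for Myd88 was lost without arginine-sufficient normal experiment 3 or tumor experiment 2. The call for Sting1 was lost without the normal arrays of experiment 1 or 3, without tumor experiment 2 in the deficient cultures and without tumor experiment 3 in the sufficient ones. In the deficient cultures the plain linear model lost it as well. Gbp2, an interferon-inducible GTPase, was lower in tumor cells with arginine (-1.66 ± 0.42, adjusted p = 0.00809).

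**Figure D3:**
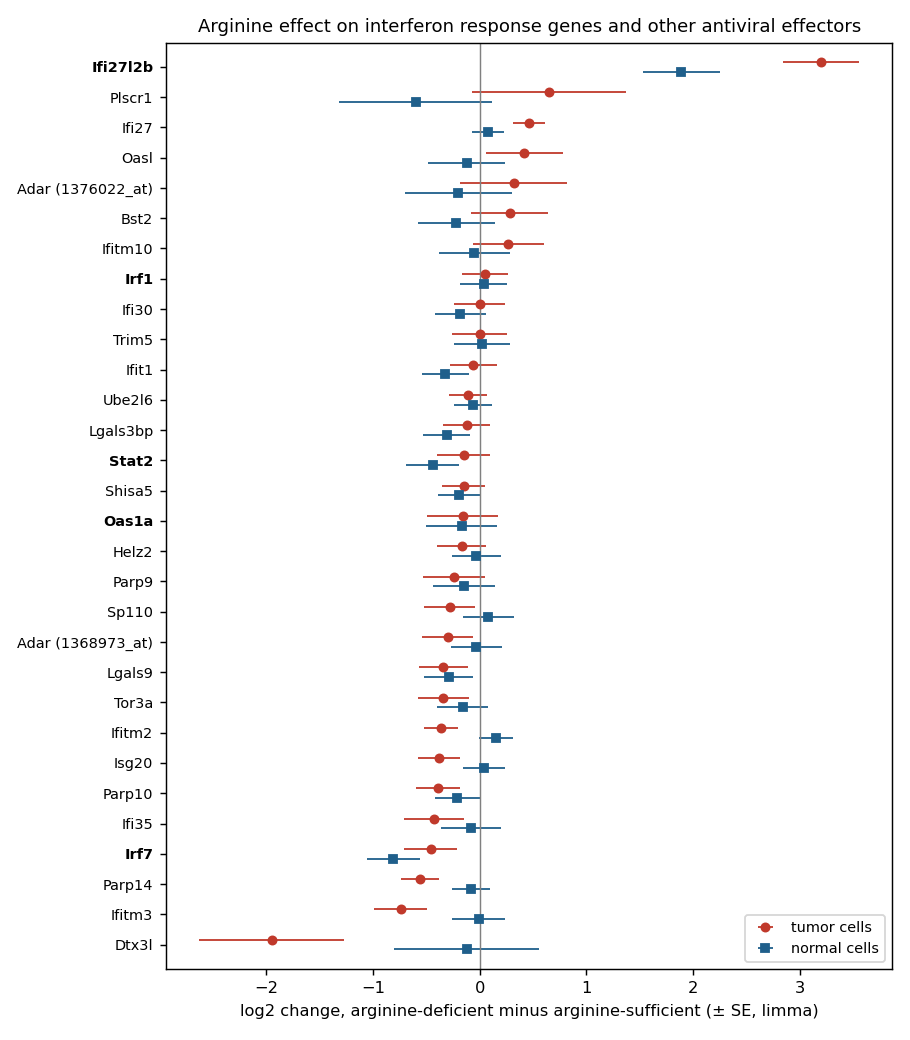
Log2 change without arginine (± SE, limma, n = 3 arrays per group) in tumor cells (circles) and normal cells (squares) for the 5 tested interferon response genes, in bold, and the 25 other tested probe sets of antiviral effectors, ordered by the change in tumor cells. Ifi27l2b lies farthest to the right in both cell types, at 3.20 and 1.89, and it is the 1 probe set shown that passed the test, in tumor cells.

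**Figure D4:**
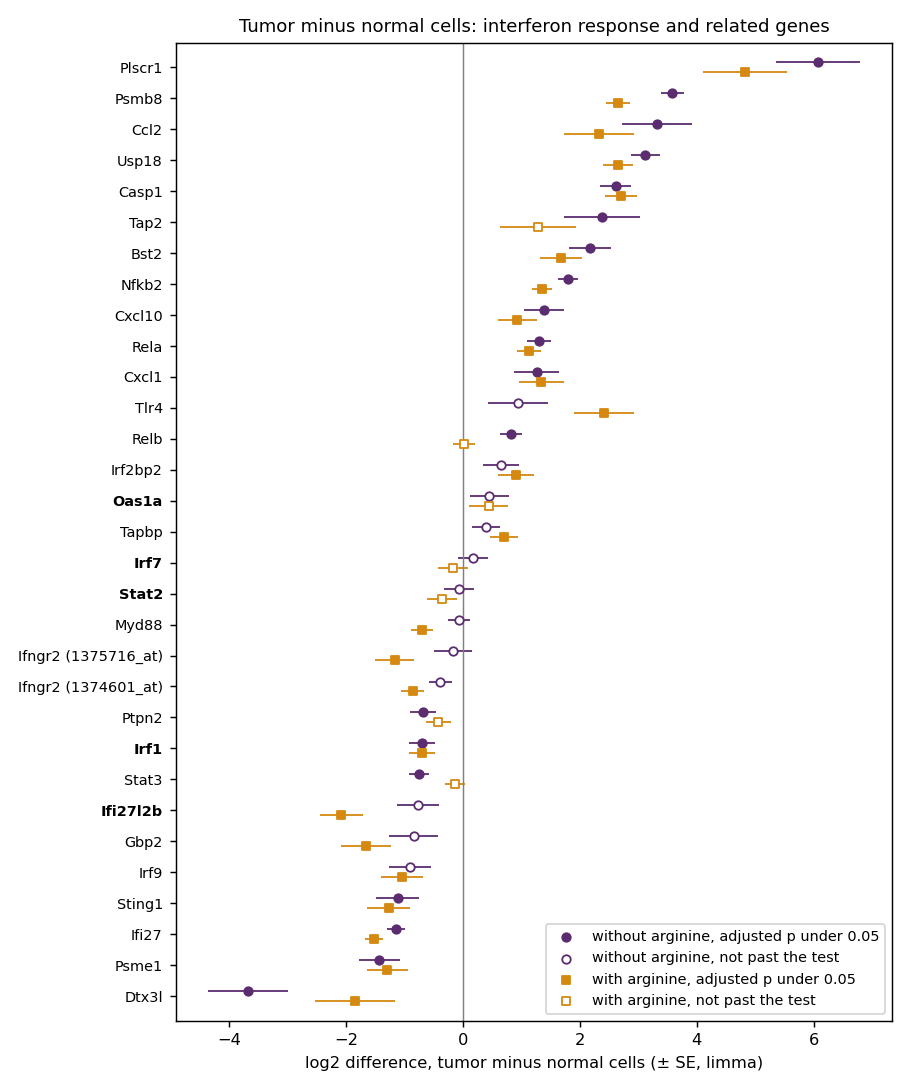
Log2 difference, tumor minus normal cells (± SE, limma, n = 3 arrays per group), without arginine (circles) and with arginine (squares) for the tested members, in bold, and the named genes of related lists. Filled symbols have an adjusted p under 0.05. Plscr1 lies at 6.07 and 4.82, with normal-cell signals below the expressed threshold, and Irf1 at -0.70 in both conditions.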

How the data were processed

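Total RNA of 12 cultures, 3 per group, was hybridized to RAE230A arrays. The deposited intensities were computed by the authors in Microarray Suite 5.0, which weighs perfect match against mismatch probes, and each array was scaled. They are linear, neither log-transformed nor centred. Run records were read for scan day, chip lot, sample code and the note of no trypsin. Precision is limited by the number of arrays.

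Values under 1 were raised to 1 before taking log2. The 57 control probe sets were left out. Symbols are those of the array annotation, in which 12777 probe sets carry 1 symbol, 311 several and 2778 none. limma 3.58.1 in R 4.3.3 was fitted with 1 mean per group, empirical Bayes moderation and an intensity trend, and was tested on simulated data. Members, gene lists and tests were chosen with earlier results of these data known. Named genes are all members, the 3 largest calls of each other list and comparison, the receptors, kinases and factors given, and the 3 nearest profiles of each called member. Ifi27, Ifitm3 and the markers fall outside this rule and were named with their values known. Figures were drawn with matplotlib 3.10.9.

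Arrays were paired by experiment through the study's first table for normal cells and by sample order for tumor cells. The sample codes in the run records were adjacent in 6 of 6 pairs, and the note of no trypsin fell on both tumor arrays of experiment 2. Deviations of paired arrays correlated at 0.43, 0.42 and 0.38 in normal cells and at 0.56, 0.04 and 0.42 in tumor cells. Alternatives covered the filter, low signals, an offset, normalization, moderation, blocks for experiment, scan day and chip lot, and each array left out.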

Additional observations from a re-analysis of the deposited data

How the results depend on the processing

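The rise of Ifi27l2b in tumor cells passed under the 22 alternatives listed above, with log2 changes of 3.03 to 3.36 and adjusted p of 1.31e-05 to 0.0399, and its lower level in tumor cells with arginine under all 19 (-2.24 to -1.91). In normal cells its change was 1.49 to 2.41 and passed under 4 of 22, so that the count of members called there became 1 with low signals raised to the 46th percentile (1.89, adjusted p = 0.0463), after median centring (1.98, 0.0432), with the experiment as a replicate block (1.89, 0.00936), and on leaving out arginine-deficient experiment 2, and was 0 to 1 over all arrays left out. For the tumor minus normal comparison without arginine, the count of members called was 2 with no filter on low signals, through the dimmer Stat2 probe set (-3.03, adjusted p = 0.00634), and 0 to 2 with single arrays left out. With arginine it was 1 to 2 with single arrays left out. No member passed for the difference of response under any alternative run.

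Values near 0 changed sign under some alternatives, none of them past the test. Irf1 had arginine changes of -0.08 to 0.23 in tumor and -0.04 to 0.19 in normal cells, and Oas1a of -0.41 to 0.08 and -0.44 to 0.16, with single arrays left out. Stat2 (tumor minus normal, without arginine) was 0.04 after quantile normalization and 0.04 after median centring, and -0.34 to 0.12 with single arrays left out. Irf7 (tumor minus normal, with arginine) was -0.34 to 0.12. Without both tumor arrays noted as no trypsin, an alternative chosen after seeing the data, Irf1 changed by -0.02 in tumor cells, and the members called between cell types were 0 without arginine and 1 with arginine, Irf1 no longer passing. Ifi27l2b in tumor cells still passed (3.0, adjusted p = 0.0481).

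In tumor cells the sample numbers alone do not establish a pairing. With the number as a block there, Ifi27l2b had an adjusted p of 0.000186 and Irf7 of 0.256, and the response difference of Ifi27l2b had 0.197. In tumor cells this fit called 11.0% of all tested probe sets, and 5 of the 76 other interferon probe sets higher and 4 lower. The higher were Ifngr2 (0.0215 and 0.0296), Ifi27 (0.0298), Usp18 (0.0157) and Irf2bp2 (0.0207). The lower were Ifitm3 (0.00864), RT1-DMa (0.0172), Traf3 (0.0321) and Dtx3l (0.0409). Apart from Ifi27l2b in normal cells the block changed no call of a member. The cause of these shifts was not tested. The comparison of cell types has no block, because experiments of the 2 lines are separate. Over all tested probe sets, median centring gave 108 higher and 52 lower calls in tumor cells, against 94 and 92 without it.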

Other observations

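The NF-kappaB pathway, which drives inflammatory genes alongside interferon factors, had 8 tested probe sets. In tumor minus normal cells, 4 were higher without arginine and 2 with arginine, and 0 were lower, or 50% and 25% called against 40.7% and 34.6% of all tested probe sets. Nfkb2, which encodes the precursor of p52, read 879.1, 802.5 and 841.4 in arginine-deficient tumor cells, against 268.0, 208.5 and 256.1 in arginine-deficient normal cells. With arginine it read 578.4, 517.3 and 691.5 in tumor cells and 234.8, 216.5 and 243.7 in normal cells. Its log2 difference was 1.79 ± 0.17 without arginine (limma, adjusted p = 4.12e-06) and 1.35 ± 0.17 with it (adjusted p = 5.65e-05). Rela, the transactivating subunit, differed by 1.13 ± 0.21 with arginine (adjusted p = 0.000995). On arginine withdrawal 0 of the 8 were called by limma in either cell type, with 2 at an unadjusted p under 0.05 in tumor cells and 0 in normal cells. In tumor cells 1 was called higher after quantile normalization, after median centring and with low signals raised, and the fit blocked by sample number called Relb higher (0.77, adjusted p = 0.0196).

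Of the 5 tested probe sets of inducible chemokines and cytokines, 4 were higher in tumor cells in each condition, where 19.5% of all tested probe sets were higher without arginine and 16.4% with arginine. The count was 3 in each with low signals raised to the threshold, and 3 without and 2 with arginine in the plain linear model. Of the 18 probe sets of this list, 13 were not tested. Casp1 and Cxcl10 passed the filter through tumor arrays alone, so the count of 4 of 5 does not stand for the whole list. Ccl2, the monocyte attractant, read 1048, 1071 and 506.6 in arginine-deficient tumor cells, against 35.4 to 269.2 in arginine-deficient normal cells, a log2 difference of 3.32 ± 0.60 (limma, adjusted p = 0.000676), or 2.07 with low signals raised (adjusted p = 0.000203). Casp1, the caspase that matures interleukin 1 beta, differed by 2.61 ± 0.27 without arginine (adjusted p = 6.89e-06) and 2.70 ± 0.27 with it (adjusted p = 5.65e-06), and was below the threshold in all normal arrays. With low signals raised it differed by 1.20 and 1.40. As above, these differences cannot be told apart from scan day and lot.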
